A study of Mus musculus with 12 samples.

Results

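Hemoglobin is the oxygen carrier of red cells, built from pairs of alpha-like and beta-like chains. The 7 mouse hemoglobin genes described here were chosen by name from a list and make up 7 of the 38127 genes counted in each library. The beta-like genes lie in a cluster on chromosome 7: the embryonic genes *Hbb-y* and *Hbb-bh1*, and the adult genes *Hbb-bs* and *Hbb-bt*. Primitive red cells, which arise in the yolk sac, use both embryonic genes, and definitive red cells use the adult genes. The study cites work in which red cells from later yolk sac progenitors also express *Hbb-bh1*, but not *Hbb-y*. The alpha-like genes lie on chromosome 11: *Hba-x*, the embryonic zeta gene, and *Hba-a1* and *Hba-a2*, the adult genes. In development, the embryonic genes are silenced as definitive red cells take over, and in the fetal liver (FL) hemoglobin RNA builds up late, as progenitors mature.

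The study sorted cells from C57BL/6 FL that lacked Ter119, an antigen of maturing red cells, and CD45, an antigen of most blood cells, after liberase digestion, and sequenced total RNA from 3 libraries per group. At E14.5 (embryonic day 14.5), P2 cells were CD54-CD31-Kit+CD24+, CD31+ cells were CD54+CD31+, and CD324+ cells, as the study names them, were labelled CD54+CD31-. The fourth group had the CD54+CD31- phenotype at E18.5. The comparisons asked whether hemoglobin RNA differed between the erythroid progenitors (P2) and the endothelial (CD31+) and hepatoblast (CD324+) populations, and between ages within the CD54+CD31- gate. Because the gates removed Ter119+ cells, hemoglobin RNA in any group came from cells, or RNA, that passed a gate meant to leave mature red cells out. In bulk RNA, fewer cells of a type and less RNA per cell cannot be told apart.

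Total counts were 40714017 to 64368883 per library. The labels fitted a marker gene of each E14.5 group, of which only *Kit* encodes an antigen of the gates: *Kit* was 322.5 ± 31.98 CPM (counts scaled to the library size after edgeR's TMM adjustment; SD, n = 3) in P2 cells. The endothelial cadherin gene *Cdh5* was 1644 ± 61.7 (SD, n = 3) in CD31+ cells, and albumin, *Alb*, was 44749 ± 3283 (SD, n = 3) in CD324+ cells. The E18.5 libraries also held high levels of lung epithelium genes, although the labels give liver. The summed level of 10 lung epithelium genes was 9763 to 21661 CPM at E18.5 and 96.6 to 250.1 CPM in the 9 E14.5 libraries, and the lung surfactant gene *Sftpc* had a mean of 7622 ± 4115 CPM (SD, n = 3) in the E18.5 cells, while no E14.5 group mean was above 0.61 CPM. The first E18.5 library stood apart from the other two, with 6527 CPM summed over 14 hepatoblast genes against 42813 and 55737, and with the highest lung sum. Fold changes, counts of calls, and ranks at E18.5 are therefore also given without it. The second P2 library had 573 CPM summed over 14 endothelial genes, against 104 and 167 in the other P2 libraries. Levels use 1 TMM scaling over all 12 libraries and each test uses that of its own fit, so the ratio of 2 printed levels can differ from the fitted fold change.

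The adult copies could not be separated over most of their length, so their counts were summed. In GENCODE vM21 on GRCm38, *Hbb-bs* (chr7:103826534-103828096, minus strand) and *Hbb-bt* (chr7:103812524-103813996, minus strand) differed at 1 of 441 coding bases, C417T, counted from 1 at the A of the start codon and with the stop codon left out. *Hba-a1* (chr11:32283511-32284465, plus strand) and *Hba-a2* (chr11:32296489-32297298, plus strand) differed at 1 of 426, C381T. The embryonic genes were distinct. *Hbb-y* (chr7:103851749-103853216, minus strand) and *Hbb-bh1* (chr7:103841637-103843164, minus strand) matched *Hbb-bs* at 74.4% and 73.9% of coding bases, and *Hba-x* (chr11:32276400-32278116, plus strand) matched *Hba-a1* at 61.7%. The same 90 coding bases of each beta-like gene, positions 328 to 417, are shown to let this be seen, with capitals where a base differs from *Hbb-bs* (in *Hbb-bs* itself, where it differs from *Hbb-bt*).
Hbb-bs: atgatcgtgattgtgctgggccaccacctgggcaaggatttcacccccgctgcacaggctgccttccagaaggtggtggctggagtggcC
Hbb-bt: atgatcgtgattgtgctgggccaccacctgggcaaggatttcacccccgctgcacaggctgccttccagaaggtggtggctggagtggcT
Hbb-y: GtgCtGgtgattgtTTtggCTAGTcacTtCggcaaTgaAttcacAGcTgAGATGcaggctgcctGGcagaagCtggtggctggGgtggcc
Hbb-bh1: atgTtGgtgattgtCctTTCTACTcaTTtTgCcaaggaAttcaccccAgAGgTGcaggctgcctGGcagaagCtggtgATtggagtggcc
The alpha-like genes are shown over positions 292 to 381, with capitals where a base differs from *Hba-a1* (in *Hba-a1* itself, where it differs from *Hba-a2*).
Hba-a1: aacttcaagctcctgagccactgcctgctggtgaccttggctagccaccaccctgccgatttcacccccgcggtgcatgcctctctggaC
Hba-a2: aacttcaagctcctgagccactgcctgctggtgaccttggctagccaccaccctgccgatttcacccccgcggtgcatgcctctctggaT
Hba-x: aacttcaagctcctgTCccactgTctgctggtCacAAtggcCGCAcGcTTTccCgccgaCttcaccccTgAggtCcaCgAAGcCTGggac
Of all 75-base windows of the longest coding transcript, 64.3% in *Hbb-bs*, 56.6% in *Hbb-bt*, 62.2% in *Hba-a1*, and 81.0% in *Hba-a2* occurred without a mismatch in the other copy. No such window of *Hbb-y*, *Hbb-bh1*, or *Hba-x* occurred in a transcript of another gene. The counts of single adult copies are thus uncertain, since how reads with several alignments were treated is not given in the sources used here. If such reads were left out, the summed adult counts are too low as well. Adult levels and ranks, the order of the genes, and the embryonic shares below carry this limit. The embryonic counts themselves do not.

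The bases before the transcription start are also shown, and any link between them and the levels was not tested. Of the 120 bases upstream of the RefSeq start on GRCm38.p6, capitals mark matches on either strand, with overlapping matches merged. The patterns are the CACC box core CACCC, the CAAT box core CCAAT, and the GATA site core GATAA. A further pattern is ATAAA, a part of the TATA box consensus TATAAA.
Hbb-bs: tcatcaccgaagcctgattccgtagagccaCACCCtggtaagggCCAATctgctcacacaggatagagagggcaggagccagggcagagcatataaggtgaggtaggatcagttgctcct
Hbb-bt: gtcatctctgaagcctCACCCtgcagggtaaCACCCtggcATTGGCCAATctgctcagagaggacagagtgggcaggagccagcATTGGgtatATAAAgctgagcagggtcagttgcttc
Hbb-y: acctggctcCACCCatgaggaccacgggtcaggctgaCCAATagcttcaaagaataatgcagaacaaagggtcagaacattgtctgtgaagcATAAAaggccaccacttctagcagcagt
Hba-a1: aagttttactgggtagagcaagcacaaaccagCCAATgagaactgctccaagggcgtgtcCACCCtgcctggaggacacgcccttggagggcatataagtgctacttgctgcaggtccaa
Hba-x: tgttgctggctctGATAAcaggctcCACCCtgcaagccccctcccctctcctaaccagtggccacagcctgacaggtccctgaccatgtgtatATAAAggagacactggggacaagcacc
These windows lie at chr7:103827929-103828048, chr7:103813924-103814043, chr7:103853208-103853327, chr11:32283552-32283671, and chr11:32276480-32276599, in that order, and GENCODE has transcripts of each gene that begin within or upstream of the window. The *Hba-a1* window recurs unbroken in the *Hba-a2* promoter, shifted by 3 bases. CACCC was found in 6 of the 6 hemoglobin promoters in the table and in 31.7% of all 32851 promoter windows of this length. CCAAT was found in 5 of 6 (all but *Hba-x*) against 21.3% of all windows, ATAAA in 3 of 6 (*Hbb-bt*, *Hbb-y*, and *Hba-x*) against 20.2%, and GATAA in 1 of 6 (*Hba-x*) against 10.5%. *Hbb-bs*, *Hba-a1*, and *Hba-a2* have tataag near the start, which ATAAA does not match. A window without ATAAA thus does not lack a TATA box for that reason. No measurement of factor binding was made in these samples.

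Hemoglobin counts were a very small part of every library, with the limit on adult counts given above. The 7 genes together took between 0.00095% and 0.0434% of a library's counts. Per kilobase of exon, adult beta (*Hbb-bs* plus *Hbb-bt*) was at 96.2 ± 18.6 RPKM (CPM divided by exon length in kilobases, the mean of both copies for a summed pair; SD, n = 3) in P2 cells, 179 ± 81.9 in CD324+ cells, 179 ± 154 in the CD31+ libraries, and 37.5 ± 28.7 at E18.5. By mean RPKM it ranked 304th, 149th, 94th, and 566th of 37930 genes in these groups (355th at E18.5 without replicate 1). Its rank in single libraries ran from 238 to 431 in P2 cells, 110 to 275 in CD324+ cells, 32 to 455 in CD31+ cells, and 263 to 4437 at E18.5. Adult alpha (*Hba-a1* plus *Hba-a2*) followed at 61.8 ± 6.14, 102 ± 20, 89.3 ± 62.0, and 19.6 ± 14.5 RPKM (SD, n = 3). *Hbb-y*, *Hba-x*, and *Hbb-bh1* were far lower at E14.5, at 5.28 to 9.34, 1.64 to 2.28, and 0.564 to 1.31 RPKM in the 3 group means, so that the order adult beta, adult alpha, *Hbb-y*, *Hba-x*, *Hbb-bh1* was the same in all 3 E14.5 groups.

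The P2 cells did not stand above the other E14.5 cells in adult hemoglobin RNA. Adult beta was 83.1, 73.1, and 56.1 CPM in the 3 P2 libraries (replicates 1, 2, and 3 in order, here and below), 76.9, 196, and 122 CPM in CD324+ cells, and 40.2, 97.4, and 258 CPM in CD31+ cells. The P2 values lay within the range of CD31+ cells and reached into that of CD324+ cells. Adult alpha was 47.5, 49.1, and 40.5 CPM in P2 cells, 58.3, 85.8, and 81.7 CPM in CD324+ cells, and 36.3, 42.9, and 118.8 CPM in CD31+ cells. Here all 3 P2 libraries lay below all 3 CD324+ libraries. At E18.5, adult beta was 5.01, 46.8, and 30.9 CPM and adult alpha was 2.63, 23.4, and 17.5 CPM, below every E14.5 library except that the highest adult beta value exceeded that of the lowest CD31+ library. By group mean, adult beta ran from CD31+ (132 ± 113; SD, n = 3) and CD324+ (132 ± 60.2) through P2 (70.8 ± 13.7) to E18.5 (27.6 ± 21.1), and adult alpha from CD324+ (75.3 ± 14.8; SD, n = 3) through CD31+ (66.0 ± 45.9) and P2 (45.7 ± 4.54) to E18.5 (14.5 ± 10.7). Among neighbours in these orders, only P2 and the E18.5 cells did not overlap, in both genes, and that pair was not tested.

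The embryonic genes were detected in all 9 E14.5 libraries and nearly vanished at E18.5. *Hbb-y*, the embryonic epsilon gene, was 4.18, 2.19, and 10.4 CPM in P2 cells, 2.63, 3.78, and 3.63 CPM in CD324+ cells, and 2.87, 5.50, and 9.35 CPM in CD31+ cells. At E18.5 it had 2, 3, and 0 counts, or 0.031, 0.039, and 0 CPM. The highest E18.5 value thus lay far under the lowest E14.5 value. *Hba-x* was 1.38, 1.23, and 2.81 CPM in P2 cells, 1.39, 1.76, and 1.46 CPM in CD324+ cells, 1.113, 2.01, and 3.28 CPM in the CD31+ libraries, and 0.124, 0.078, and 0.042 CPM (8, 6, and 3 counts) at E18.5. *Hbb-bh1*, the early embryonic beta-like gene, was the lowest, at 0.482, 0.770, and 0.308 CPM in P2 cells, 0.594, 0.944, and 0.864 CPM in CD324+ cells, and 0.180, 0.160, and 0.697 CPM in CD31+ cells, with 0 counts in each E18.5 library. For all 3 embryonic genes the E14.5 groups overlapped one another, and each E14.5 group lay above the E18.5 group without overlap. By group mean, *Hbb-y* ran from CD31+ (5.91 ± 3.26; SD, n = 3) through P2 (5.59 ± 4.28) and CD324+ (3.34 ± 0.623) to E18.5, *Hba-x* from CD31+ (2.14 ± 1.09) through P2 (1.81 ± 0.874) and CD324+ (1.53 ± 0.200) to E18.5, and *Hbb-bh1* from CD324+ (0.801 ± 0.183) through P2 (0.520 ± 0.233) and CD31+ (0.346 ± 0.305) to E18.5.

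**Figure D1:**
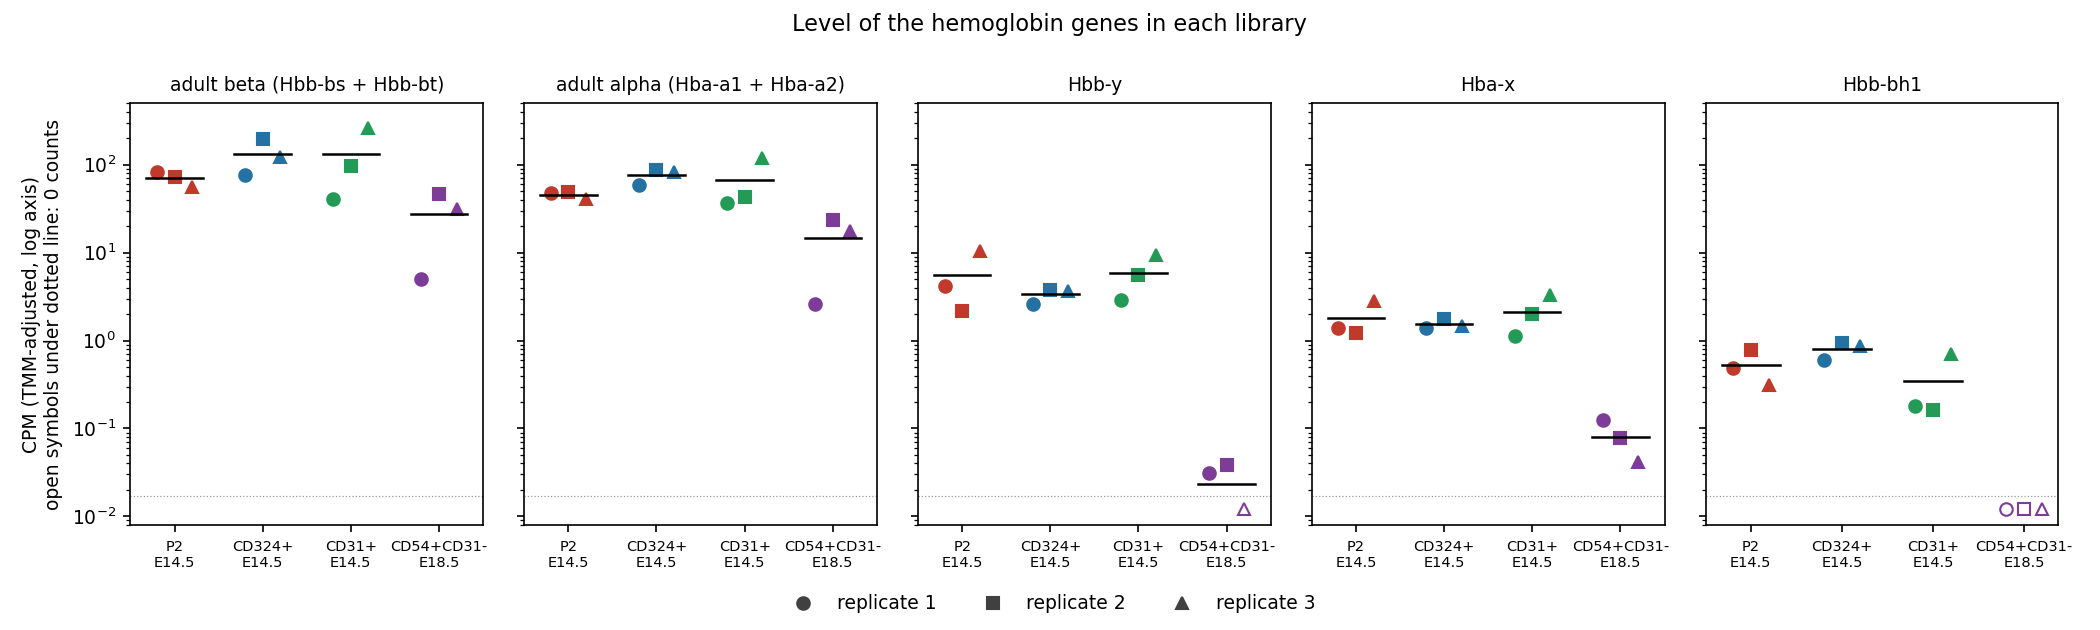
Level of each hemoglobin gene or summed pair of adult copies in the 12 libraries, in TMM-adjusted CPM on a log axis, by group. Points are libraries (shape gives the replicate number), bars are means of 3, and open symbols under the dotted line mark 0 counts. The E14.5 groups overlap in most panels, and the E18.5 libraries lie lowest, with 0 counts of *Hbb-bh1* in all 3.

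The spread between replicates was uneven. The third CD31+ library had the highest level of its group in each of the 5 features, and its adult beta was 6.42 times that of the first. The third P2 library had the highest *Hbb-y* and *Hba-x* of its group, with *Hbb-y* 4.76 times that of the second, while its adult beta, adult alpha, and *Hbb-bh1* were the lowest of the group. In CD324+ cells the highest *Hbb-y* was 1.44 times and the highest *Hba-x* 1.27 times the lowest, while adult beta spanned 2.55 times, against 1.48 times in P2 cells. The summed late erythroid genes varied less, at 1277, 1568, and 1648 CPM in the CD31+ libraries and 5500, 4982, and 5204 CPM in the P2 libraries, with the third CD31+ library again the highest of its group. Across the 12 libraries, log2(CPM + 1) of adult alpha and adult beta had a Pearson r of 0.972, and *Hba-x* and *Hbb-y* of 0.988, points that share the low E18.5 group. Taken as deviations from the group means of the 9 E14.5 libraries, which share each library's depth, r was 0.920 for the adult pair and 0.948 for *Hba-x* and *Hbb-y*, but 0.035 for the embryonic beta-like genes *Hbb-y* and *Hbb-bh1*.

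Between P2 and CD324+ cells, none of the 5 features passed the test (edgeR's quasi-likelihood test, Benjamini-Hochberg adjusted p below 0.05), while of the 15459 features tested 33.8% were higher and 36.1% lower in P2 cells (48.4% of calls higher, or 38.2% with the authors' factors). An unadjusted p below 0.05 was also reached by 0 of the 5, and DESeq2 called 0. The log2 fold change was -0.91 ± 0.56 (SE, n = 3 per group; edgeR adjusted p = 0.167) for adult beta and -0.74 ± 0.38 (edgeR adjusted p = 0.107) for adult alpha. It was 0.72 ± 0.55 (edgeR adjusted p = 0.262) for *Hbb-y*, 0.22 ± 0.44 (edgeR adjusted p = 0.669) for *Hba-x*, and -0.64 ± 0.60 (edgeR adjusted p = 0.366) for *Hbb-bh1*. The result for the adult genes depended on which libraries set the spread. In a fit of only these 6 libraries, without the variable CD31+ group, adult alpha (-0.76, edgeR adjusted p = 0.00074) and adult beta (-0.93, edgeR adjusted p = 0.0168) were called lower in P2 cells. Adult alpha was also called with the authors' normalization factors (-0.99, edgeR adjusted p = 0.0434), and *Hbb-y* was called higher without the second P2 library, the one with the high endothelial sum (1.12, edgeR adjusted p = 0.0497). Without the third P2 library, in which both were highest, *Hbb-y* (-0.086, edgeR adjusted p = 0.885) and *Hba-x* (-0.25, edgeR adjusted p = 0.641) turned below 0.

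Between P2 and CD31+ cells, 0 of the 5 features passed, against 34.3% of all features higher and 39.4% lower in P2 cells (46.6% of calls higher, or 33.9% with the authors' factors). At an unadjusted p below 0.05 the count was 0 as well, and DESeq2 called 0. Adult beta differed by -0.91 ± 0.56 on the log2 scale (SE, n = 3 per group; edgeR adjusted p = 0.161) and adult alpha by -0.54 ± 0.38 (edgeR adjusted p = 0.216). *Hbb-y* (-0.09 ± 0.53) and *Hba-x* (-0.25 ± 0.43) had estimates within 1 SE of 0, and *Hbb-bh1* was 0.56 ± 0.61. These values rested on single libraries of both groups. *Hbb-y* turned above 0 without the first (0.16) or the second (0.30) P2 library. Without the third CD31+ library, *Hbb-bh1* was called higher in P2 cells (1.58, edgeR adjusted p = 0.0311), and the other 4 estimates turned above 0, to between 0.03 and 0.41. Without the first, adult beta was called lower in P2 cells (-1.34, edgeR adjusted p = 0.0204).

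Between CD31+ and CD324+ cells, 0 of the 5 features passed, against 31.7% of all features higher and 34.0% lower in the CD31+ libraries, and 0 reached an unadjusted p below 0.05 or a DESeq2 call. Adult beta was level in the means, with a log2 fold change of 0.00063 ± 0.55 (SE, n = 3 per group; edgeR adjusted p = 0.999). *Hbb-bh1* had the estimate farthest from 0, -1.20 ± 0.61 (edgeR adjusted p = 0.110), with *Hbb-y* at 0.82 ± 0.55 (edgeR adjusted p = 0.213), *Hba-x* at 0.47 ± 0.43 (edgeR adjusted p = 0.359), and adult alpha at -0.19 ± 0.38 (edgeR adjusted p = 0.669). Without the third CD31+ library, *Hbb-bh1* (-2.22, edgeR adjusted p = 0.00815) and adult alpha (-0.93, edgeR adjusted p = 0.00132) were called lower in CD31+ cells.

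Markers of other cells differed between these groups as well. Of 13 macrophage genes, 12 were called lower in P2 cells against CD324+ cells and 12 against CD31+ cells, each counted on its own. Of all features, 36.1% and 39.4% were lower in these comparisons. Between CD31+ and CD324+ cells 9 were lower in CD31+ cells and 1 was higher, *Mrc1*, a mannose receptor gene that liver sinusoidal endothelium also uses, at 1416 ± 106 CPM (SD, n = 3) in CD31+ cells against 27.8 ± 9.15. The sum of the other 12 was 10.4 to 16.7 CPM in P2 cells, 404 to 539 CPM for CD324+, and 146 to 229 CPM for CD31+. Of 14 endothelial genes, 12 were called higher in P2 cells against CD324+ cells (median 2.26, or 1.07 with 12 still higher without the second P2 library), and all 14 were called lower in P2 cells against CD31+ cells. The summed megakaryocyte genes (10 genes) were 78.5 to 172.8 CPM in P2 cells, 83.3 to 102.6 CPM for CD324+, and 641 to 1079.6 CPM for CD31+. The part of these cells in the hemoglobin values was not tested. Each of the 3 E14.5 groups enters 2 of these comparisons, so their values are not independent.

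Within the CD54+CD31- gate, all 5 features were lower at E18.5 than at E14.5 (CD324+ cells), where 33.5% of the 15861 features tested were lower and 35.9% higher. The embryonic genes had at most 8 counts in an E18.5 library and passed the low count filter only through the E14.5 group. They could thus only be called lower, so the count of 5 cannot be set against these shares. *Hba-x* fell by 4.03 ± 0.44 on the log2 scale (SE, n = 3 per group; edgeR adjusted p = 0.000256), with 164 counts in the 3 E14.5 libraries and 17 in the 3 E18.5 libraries. *Hbb-y* had 360 and 5 counts, a 143-fold lower rate per TMM-adjusted library size at E18.5 (exact 95% interval for counting error, 60.8 to 443.8), or 167-fold without replicate 1 (3 counts, 56.6 to 812). *Hbb-bh1* had 86 and 0 counts, so that its level was at least 18.9-fold lower at E18.5 (19.9-fold without replicate 1), with 3 counts per library taken as the floor. Both were called (edgeR adjusted p = 9.4e-05 and 0.00057), but their fitted fold changes depend on the prior count and are not given. Without the first E18.5 library, *Hba-x* differed by -4.46 (edgeR adjusted p = 6.6e-05), and the calls of *Hbb-y* and *Hbb-bh1* held without any one of the 6 libraries.

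The adult genes also fell, by less and with a weaker call. Adult beta differed by -2.07 ± 0.75 (SE, n = 3 per group; edgeR adjusted p = 0.0430) and adult alpha by -2.20 ± 0.69 (edgeR adjusted p = 0.0255). Without the first E18.5 library, in which both were lowest, adult beta differed by -1.59 (edgeR adjusted p = 0.00304) and adult alpha by -1.71 (edgeR adjusted p = 3.4e-05). Both calls were lost without CD324+ replicate 1, 2, or 3 or E18.5 replicate 3, with edgeR adjusted p of 0.0519, 0.0742, 0.0696, and 0.0511 for adult alpha and 0.0588, 0.137, 0.0886, and 0.0860 for adult beta. Adult beta was also not called with the authors' factors (edgeR adjusted p = 0.0543), without genes above 1% of a library (0.0502), or among genes with at least 10 counts in every library (0.0536). Other cell content moved with these values. The hepatoblast sum was 81866 to 94011 CPM at E14.5 and 6527 to 55737 CPM at E18.5, the lung epithelium sum was higher at E18.5 as given above, and the sum of 24 late erythroid genes was 1610 to 2338 CPM at E14.5 and 546 to 1055 CPM at E18.5. The part of these shifts in the hemoglobin result was not tested.

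**Figure D2:**
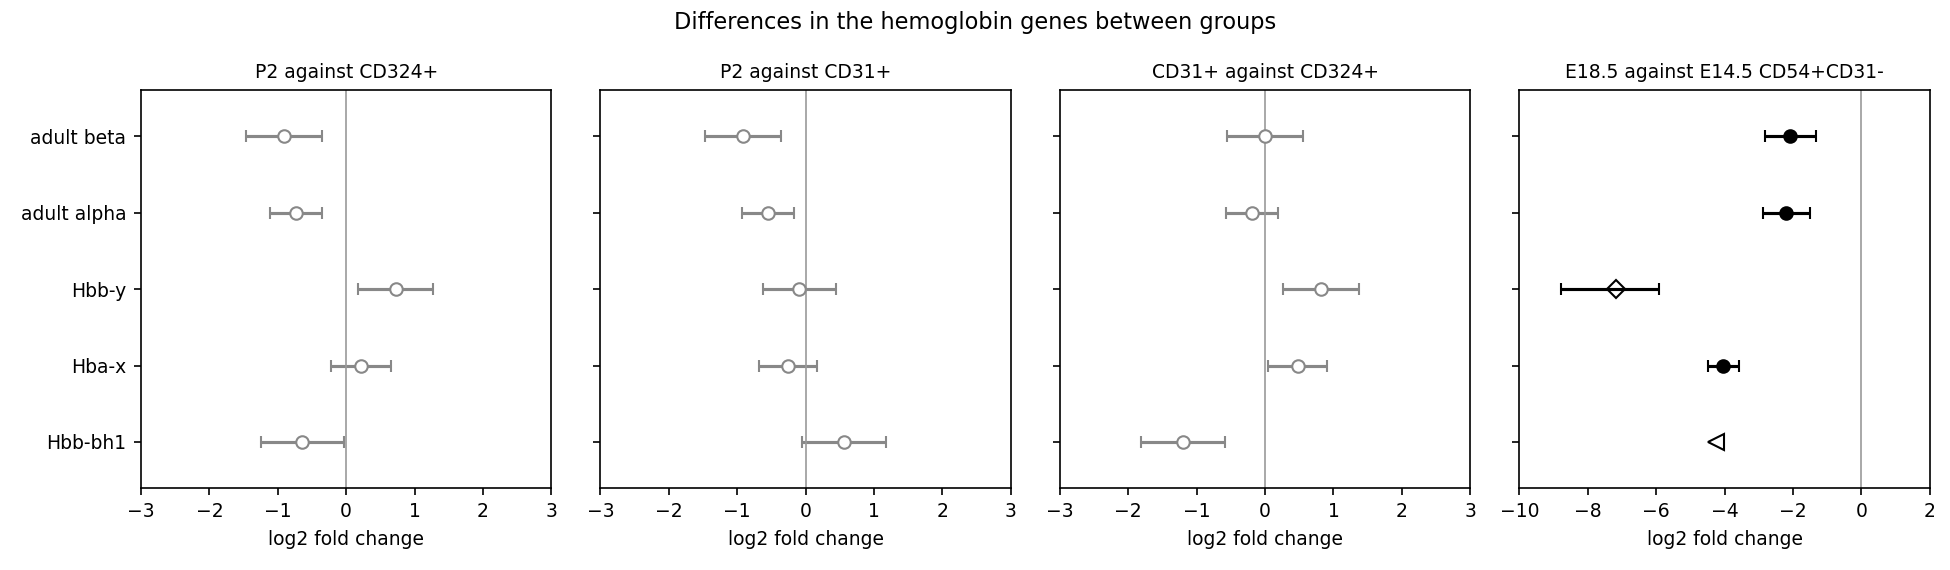
Log2 fold change (x axis) of the 5 features in the 4 comparisons, the group named first minus the second. Circles are edgeR estimates with SE, filled where the adjusted p was below 0.05, the diamond is the *Hbb-y* count ratio with its exact 95% counting interval, and the open triangle is the upper bound for *Hbb-bh1*. No circle is filled in the 3 E14.5 panels, and every symbol lies below 0 at E18.5.

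Shares within a gene family remove library size from the comparison, but not any loss of adult reads shared by the copies. The embryonic genes *Hbb-y* and *Hbb-bh1* made up 5.31%, 3.88%, and 16.0% of beta-like counts in P2 cells, 4.03%, 2.35%, and 3.55% in CD324+ cells, 7.05%, 5.50%, and 3.74% in the CD31+ libraries, and 0.613%, 0.083%, and 0% in the E18.5 cells. The third P2 library was the highest of all 12, with an exact 95% binomial interval of 14.8% to 17.3%, and the third E18.5 library had 0 of 2230 counts. Taking 3 counts as the floor, that allows a share of up to 0.135%, and its exact interval reached 0.165%. Such intervals cover counting error only, since PCR duplicates were not marked by molecular identifiers. Over all 12 libraries the 4 groups differed with p = 0.0399 (two-sided exact permutation test over 369600 arrangements, 0.0598 after adjustment over 3 such tests), which does not pass 0.05. On a log odds scale the adjusted permutation p was 0.0136, with the main p of the other tests kept, as in each alternative below. The unscaled share passed without any one P2 library, with adjusted permutation p of 0.0469 (replicate 1), 0.0162 (replicate 2), and 0.0117 (replicate 3). With labels exchanged only among libraries of the same replicate number, an alternative chosen after seeing the data, the exact permutation p was 0.0833 (adjusted 0.125). In each of the 3 same-numbered pairs of CD31+ and CD324+ libraries the share was higher in CD31+ cells, but whether the numbers pair the libraries is not settled.

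*Hba-x* followed a similar order within the alpha-like counts at E14.5, with 2.82%, 2.44%, and 6.49% in P2 cells, 2.32%, 2.01%, and 1.75% in CD324+ cells, and 2.98%, 4.48%, and 2.69% in CD31+ cells. The CD324+ range lay below both others, which overlapped. At E18.5 it took 0.331% and 0.236% in replicates 2 and 3 but 4.49% in replicate 1, where 8 of only 178 alpha-like counts were *Hba-x* (exact 95% binomial interval 1.96% to 8.66%). The lower *Hba-x* share at E18.5 was thus not seen in the first library, in contrast to its CPM level. Within the embryonic beta-like counts, *Hbb-bh1* took 18.4%, 20%, and 19.2% in CD324+ cells and 5.88%, 2.83%, and 6.94% in CD31+ cells, ranges that did not overlap. In P2 cells it took 10.3%, 26.1%, and 2.88%, which ran across most of both ranges.

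The ratio of alpha-like to beta-like counts did not separate the groups. It was 0.622 ± 0.057 (SD, n = 3) in P2 cells, 0.613 ± 0.159 in CD324+ cells, 0.585 ± 0.242 in the CD31+ libraries, and 0.539 ± 0.035 at E18.5 (exact permutation p = 0.876, adjusted 0.876). The total level of the 7 genes was 137, 126, and 110 CPM in P2 cells, 140, 288, and 209 CPM in CD324+ cells, 80.7, 148, and 390.4 CPM in the CD31+ libraries, and 7.80, 70.3, and 48.5 CPM at E18.5. All 3 E18.5 libraries lay below all 9 others. The groups differed with an exact permutation p of 0.0145, or 0.0436 adjusted over the 3 tests. That call was lost with the library total or the authors' factors in place of TMM (0.0598 each) and with DESeq2's size factors (0.0579). It was also lost without 9 of the 12 libraries in turn, namely any CD324+ or P2 library, CD31+ replicate 2 or 3, or E18.5 replicate 1, with adjusted p from 0.0598 to 0.169. With labels exchanged only among same-numbered libraries, the exact permutation p was 0.0260 (adjusted 0.0598). Each alternative was adjusted with the main p of the other tests kept. Where it is 0.0598, the adjusted value is thus the main one of the embryonic share, and not one over 3 tests of the same setting.

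The split between the adult beta copies followed the groups, while that between the adult alpha copies did so only in part. *Hbb-bt* took 42.2%, 39.9%, and 41.5% of adult beta counts in P2 cells, 38.0%, 37.8%, and 38.6% in CD324+ cells, 33.7%, 34.2%, and 34.6% in the CD31+ libraries, and 31.5%, 31.9%, and 30.7% in the E18.5 cells. The 4 ranges did not overlap. The exact 95% binomial intervals of the 3 libraries overlapped one another within each group, and some also overlapped with those of the next group, as for the second P2 library (38.3% to 41.6%) and the third CD324+ library (37.3% to 40.01%). The total adult beta counts behind them went from 324 in the first E18.5 library to 16296 in the third CD31+ library, and both shares lay near those of their own group. *Hba-a2* took 28.7 ± 1.78% (SD, n = 3) of adult alpha counts in P2 cells, 31.6 ± 1.84% in CD324+ cells, 36.4 ± 2.28% in the CD31+ libraries, and 26.4 ± 3.44% at E18.5, where the P2 and CD324+ ranges met at 29.7% and the E18.5 range crossed the P2 range and reached 29.8%. These splits were examined after their values were seen and were not tested, and the counting of reads shared by the copies limits them as described above.

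**Figure D3:**
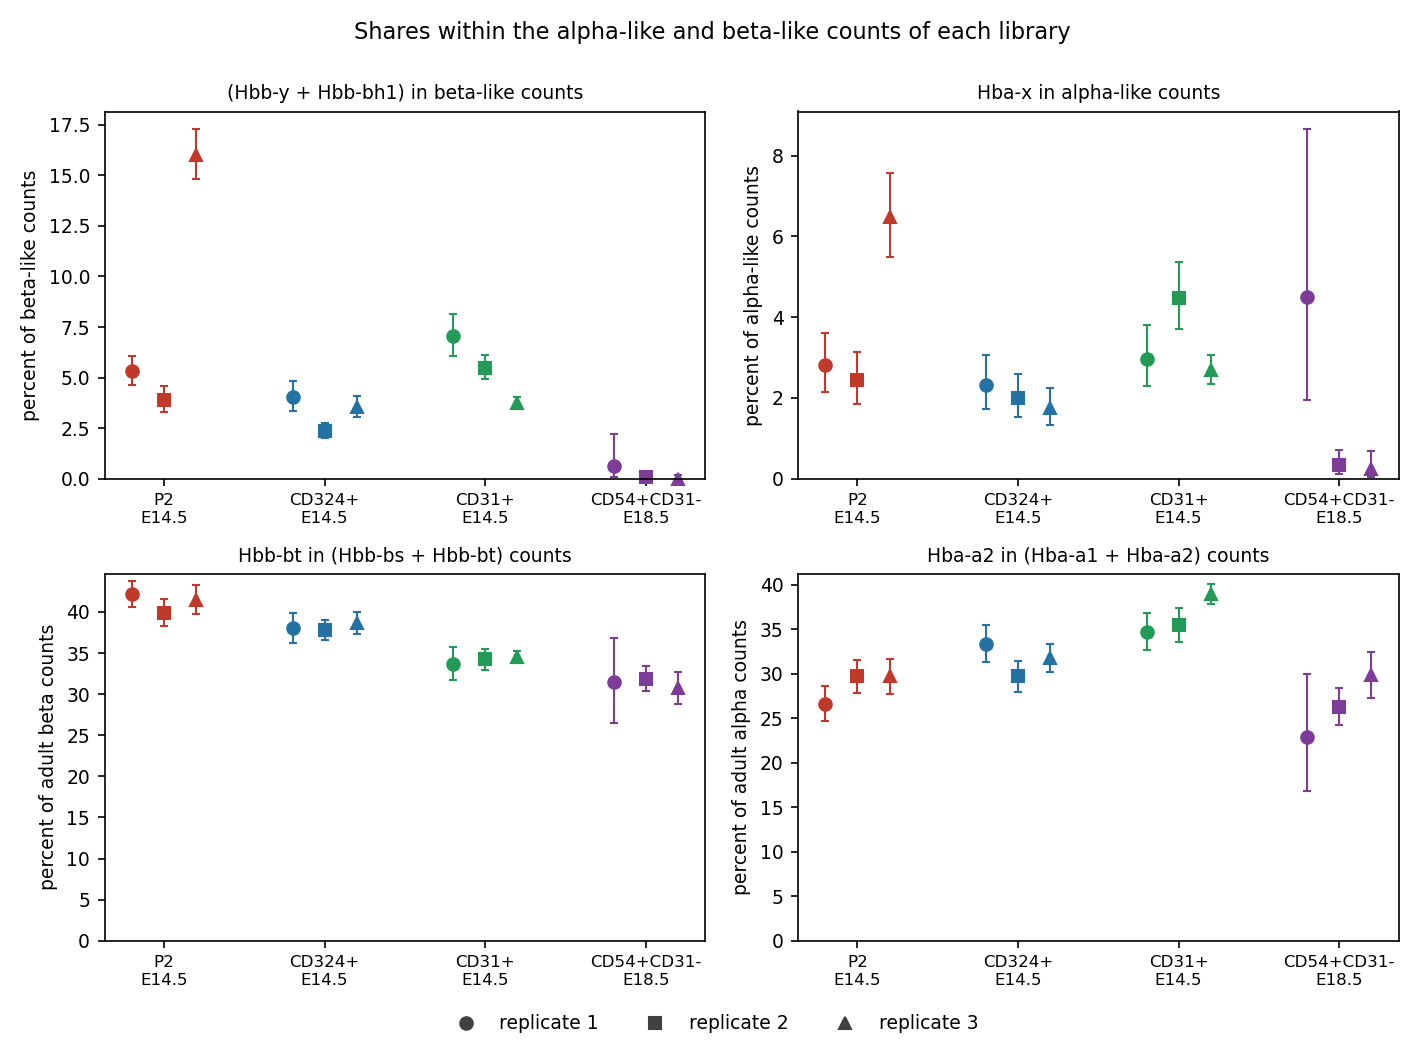
Percent of counts taken by the embryonic genes (upper panels) and by one of the near-identical adult copies (lower panels) in each library, with exact 95% binomial intervals. Shapes give the replicate number. *Hbb-bt* takes 39.9% to 42.2% in P2 cells and 30.7% to 31.9% at E18.5, while the third P2 library stands out in both embryonic shares.

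Genes that act on the hemoglobin genes did differ at E14.5. Of the 15 regulators tested of 17 listed, 11 were higher and 0 lower in P2 than in CD324+ cells (median log2 fold change 2.07, against -0.01 for all features), and 11 were higher and 2 lower than in CD31+ cells (median 1.12, against -0.13). Over all features, 33.8% and 34.3% were higher and 36.1% and 39.4% lower in P2 cells in these comparisons, the shares against which the list counts below are to be read. *Klf1*, which activates the adult beta genes, was 397 ± 43.6 CPM (SD, n = 3) in P2 cells, against 56.2 ± 18.7 (CD324+) and 33.3 ± 8.46 (CD31+). *Gata1*, the main erythroid transcription factor, was 176 ± 7.35, 25.5 ± 8.72, and 26.6 ± 3.11 CPM (SD, n = 3) in the same groups. *Bcl11a*, a repressor of embryonic beta-like genes, was 194 ± 8.72, 21.0 ± 4.31, and 25.7 ± 4.37 CPM, and *Myb* was 278 ± 24, 12.2 ± 4.64, and 38.1 ± 9.02 CPM. P2 cells had the highest levels of these 4 regulators, while the estimates for the adult hemoglobin genes were below 0. *Sox6*, another repressor of embryonic globin genes, was not called between P2 cells and either group (adjusted p = 0.0906 and 0.126 by edgeR).

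The genes of heme synthesis, which supplies the oxygen-binding group, were also mostly higher in P2 cells. Of 11 tested of 13 listed, 10 were higher and 0 lower against each of the other E14.5 groups (medians 1.13 and 1.98), with 33.8% and 34.3% of all features higher. *Cpox* was 946 ± 60.7 CPM (SD, n = 3) in P2 cells, against 261 ± 58.2 (CD324+) and 125 ± 20.6 (CD31+), and *Fech*, which inserts the iron, was 321 ± 31.6, 168 ± 29.2, and 84.7 ± 10.9 CPM. The exception was *Slc25a37*, which carries iron into mitochondria and was 89.1 ± 8.78, 78.4 ± 16.6, and 71.1 ± 28.1 CPM. Of 7 genes listed for globin protein quality control, not all of which act on globin itself, 5 were higher in P2 cells in each comparison. The 1 gene lower than in CD324+ cells was *Ulk1*, an autophagy kinase (-0.28 ± 0.09, edgeR adjusted p = 0.0164).

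Most late erythroid genes were higher in P2 cells. Of 24 tested, 20 were higher and 3 lower in P2 than in CD324+ cells (median 1.21; 33.8% and 36.1% over all features), and 17 higher and 2 lower than in CD31+ cells (median 1.60; 34.3% and 39.4% over all features). The 2 lower than in CD31+ cells were *Xpo7* and the lipoxygenase gene *Alox15*. The 3 lower than in CD324+ cells were *Slc4a1*, the band 3 anion exchanger (-0.91 ± 0.25, edgeR adjusted p = 0.00768), *Xpo7*, a nuclear export receptor (-1.52 ± 0.16, edgeR adjusted p = 8.3e-06), and *Ube2l6*, a conjugating enzyme for ISG15 (-2.26 ± 0.16, edgeR adjusted p = 5.5e-07). *Slc4a1* was 120 ± 33.3 CPM (SD, n = 3) in P2 cells, against 224 ± 61.5 (CD324+) and 126 ± 26.7 (CD31+). Of the 12 early progenitor genes, all were called higher in P2 cells against CD324+ cells (median 2.78), and 11 against CD31+ cells (median 2.76). The exception was *Gata2*, an early progenitor factor, which was lower in P2 than in CD31+ cells (-2.53 ± 0.31, edgeR adjusted p = 3e-05).

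Between CD31+ and CD324+ cells, 7 of 15 regulators were higher and 2 lower in CD31+ cells, and 10 of the 11 heme genes were lower (median -0.82, against -0.03 for all features), where 31.7% of all features were higher and 34.0% lower. At E18.5, 9 of 11 heme genes, 6 of 7 globin protein quality genes, and 13 of 23 late erythroid genes were lower than at E14.5, against 33.5% of all features. Without the first E18.5 library these counts were 10, 6, and 19, against 35.9% of all features. The regulators split into 6 higher and 6 lower of 15, or 6 and 7 without that library. *Klf1* differed by -2.52 ± 0.54 (edgeR adjusted p = 0.00515) and *Gata1* by -2.35 ± 0.50 (edgeR adjusted p = 0.00522), or by -2.11 and -1.97 without it (edgeR adjusted p = 6.1e-05 and 0.00014). *Sox6* was higher (0.78 ± 0.22, edgeR adjusted p = 0.0156) and *Bcl11a* lower (-0.67 ± 0.18, edgeR adjusted p = 0.0133), with 0.87 and -0.60 without that library, both still called. *Alas2*, *Abcb10*, *Zfpm1*, *Cbfa2t3*, and *Mpg* of these lists are listed at 0 in all 12 libraries, and nothing is read from them.

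**Figure D4:**
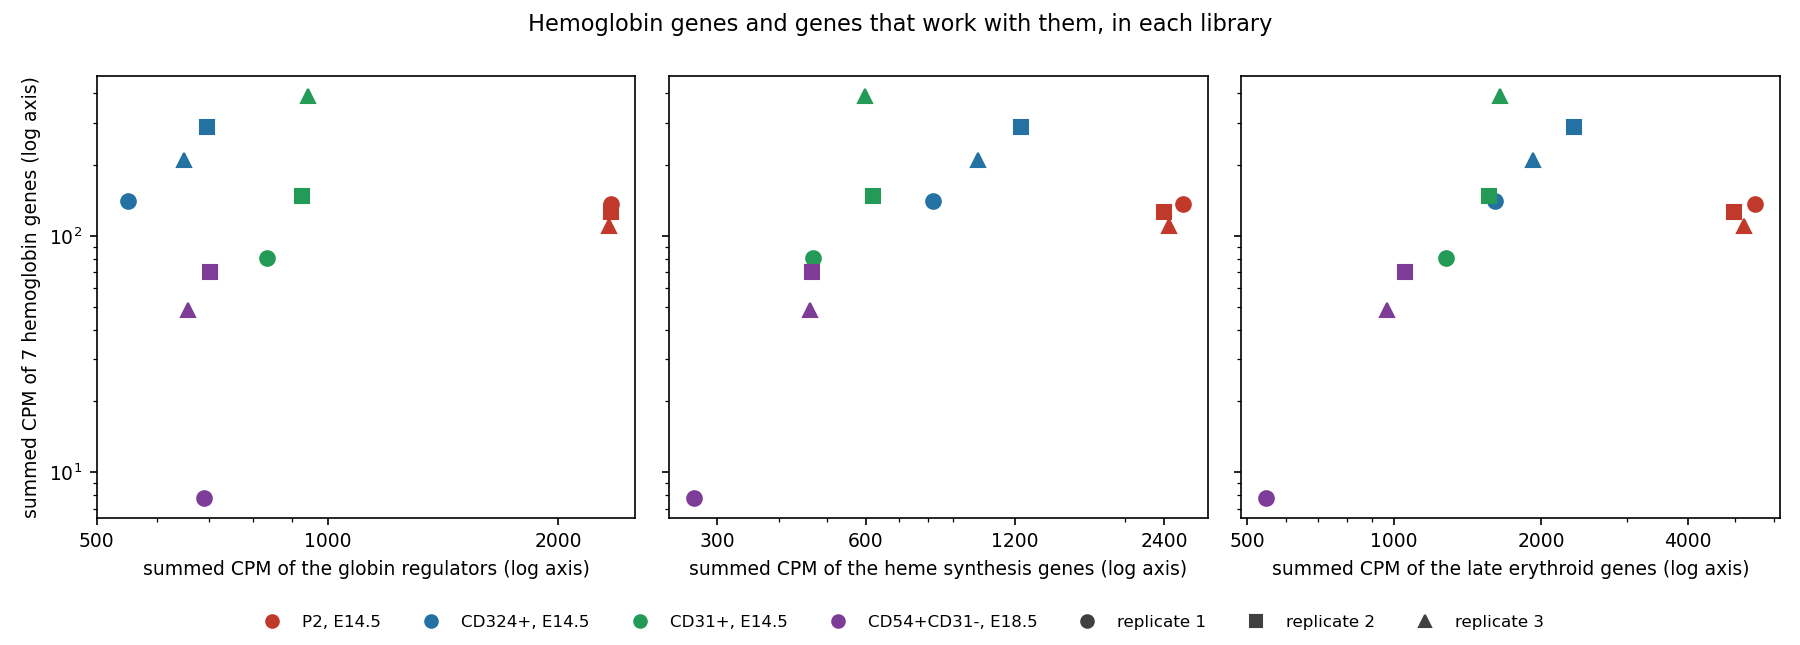
Summed CPM of the 7 hemoglobin genes (y axis) against the summed CPM of the globin regulators, heme synthesis genes, and late erythroid genes (x axes), all on log axes. Each point is a library, colour gives the group and shape the replicate number. P2 libraries lie far to the right (regulators 2331 to 2344 CPM) at hemoglobin levels of 110 to 137 CPM, inside the range of the other E14.5 libraries.

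The neighbours of the alpha genes on chromosome 11 were called in both directions, with 2 higher and 1 lower of 4 tested in P2 against CD324+ cells, 3 higher and 1 lower against CD31+ cells, 0 called between CD31+ and CD324+ cells, and 1 higher and 2 lower at E18.5, with or without the first E18.5 library. With 4 genes tested and such shares of all features called, nothing is read from these counts. *Nprl3*, whose introns hold the alpha globin enhancers, was 19.5 ± 1.21 CPM (SD, n = 3) in P2 cells, 12.48 ± 0.514 in CD324+ cells, 14.8 ± 1.92 in the CD31+ libraries, and 9.81 ± 0.472 at E18.5. It was higher in P2 cells when set against CD324+ cells (0.62 ± 0.12, edgeR adjusted p = 0.00089) and was not called between the ages (-0.16 ± 0.11 with the scaling of the 6 libraries fitted, edgeR adjusted p = 0.224, and -0.16 without the first E18.5 library). *Rhbdf1*, which encodes an inactive rhomboid, was 0.848 ± 0.545 CPM in P2 cells and 16.4 ± 2.73 to 25.8 ± 1.37 CPM in the other groups. *Hbq1b*, a theta-like gene, had 4 to 27 counts in the E14.5 libraries and 1, 12, and 2 at E18.5. All 3 of the other globins tested between the ages, *Cygb*, *Mb*, and *Ngb*, were higher at E18.5, where 35.9% of all features were higher. They passed the low count filter only through the E18.5 group and could thus only be called higher. The E18.5 libraries also held lung epithelium RNA, and its part in these values was not tested. Cytoglobin, *Cygb*, an oxygen-binding globin of fibroblast-like cells, averaged 22.3 ± 4.21 CPM (SD, n = 3) at the later age, while no E14.5 group mean was above 0.370 CPM (6.05 ± 0.45 against CD324+ cells, edgeR adjusted p = 5.8e-05). The myoglobin gene *Mb* had 104, 40, and 34 counts at E18.5 and 2, 1, and 0 in CD324+ cells, and the neuroglobin gene *Ngb* had 46, 36, and 52 against 4, 0, and 0. All 3 were also called without the first E18.5 library, where 36.8% of all features were higher. *Cygb* and *Mb* were highest in that library, as was the lung sum, while *Ngb* was not.

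By the Pearson r of log2(CPM + 1) over the 12 libraries, among 13206 genes with a mean of at least 1 CPM, the genes with a pattern most like adult alpha were *Slc4a1* (r = 0.935), *Slc25a37* (0.932), *Abcg2* (0.931), *Btrc* (0.916), and *Uhrf2* (0.910). For adult beta they were *Slc25a37* (0.923), *Slc4a1* (0.920), *Gm867* (0.901), *Gas2l3* (0.867), and *Pwwp2a* (0.863). Those most like *Hbb-y* were *Sgol2a* (0.971), *Gm9762* (0.946), *Pcyox1l* (0.942), *Gosr2* (0.934), and *Gm16437* (0.933). Each had its lowest value in an E18.5 library, for the genes of adult alpha and adult beta the first. For the genes of *Hbb-y*, every E18.5 library lay below every E14.5 library. For *Slc4a1*, *Slc25a37*, *Gm867*, *Gas2l3*, and *Pwwp2a*, another E18.5 library exceeded the lowest E14.5 value. Over the 11 libraries without the first E18.5 library, r was 0.777 to 0.814 for the 5 genes of adult alpha, 0.619 to 0.791 for those of adult beta, and 0.915 to 0.975 for those of *Hbb-y*. In that library *Slc4a1* was 14.6 CPM against 98.9 and 87.0 CPM in the others. *Slc4a1* was lower in P2 than in CD324+ cells, as given above, and *Slc25a37* was not called in any of the 4 comparisons, but was lower at E18.5 without the first E18.5 library (-0.53, edgeR adjusted p = 0.0130).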

How the data were processed

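Total RNA of 12 libraries was sequenced. The authors trimmed reads with cutadapt 1.11, aligned them with STAR 2.5.0a to GRCm38, and counted them per gene with featureCounts 1.4.6-p3, per the labels and methods. The deposited raw counts were used for all tests. The deposited normalized score, the count times 1 factor per library, rounded, served only to read the authors' factors. The strand setting and the treatment of reads with several alignments are not given in the sources used here.

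Near-identical copies were summed. EdgeR 4.0.16 in R 4.3.3 (TMM, filterByExpr, quasi-likelihood test, population as the only factor, Benjamini-Hochberg adjustment over all features, adjusted p below 0.05) was fitted to the 9 E14.5 libraries together and to the 6 CD54+CD31- libraries separately. All 5 features passed the low count filter in both fits, the embryonic genes in the second fit only through their E14.5 counts. Levels are CPM over TMM-adjusted library sizes. SE is the log2 fold change divided by the square root of F. Shares, ratios, and total level were compared with exact permutation tests. Each alternative of such a test was adjusted with the main p of the other tests kept. Alternatives were DESeq2 1.42.0, other scalings, filters, and sets of libraries, a replicate block, and each library left out. Tests were tried on simulated data.

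Members and lists were chosen with earlier results of these data known. The genes named are the hemoglobin genes, genes of the lists, and the 5 genes most correlated with each of 3 features, with *Sftpc* and other markers from the same lists. One of the 8 listed genes is not reported here. Of 38127 identifiers, 37932 were found in GENCODE vM21. The study gives n = 3 independent litters for the E14.5 groups and names no litters for the E18.5 libraries. In each group, counts of replicate pairs were farther apart than read sampling allows (chi-square over its degrees of freedom at least 42.0), so no library was counted as a duplicate. That does not show that the E18.5 libraries came from separate litters. Deviations from the group means of same-numbered CD31+ and CD324+ libraries had r across genes of 0.333, 0.261, and 0.123. The shared numbers come from the labels. Libraries of unlike number were not set against these values, so pairing by number is not settled.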

Additional observations from a re-analysis of the deposited data

How the results depend on the processing

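Of 289 refits of a member's fold change, 255 kept direction and call. The count of features called was 0 in each E14.5 comparison and 5 at E18.5, where the embryonic genes could only be called lower. With the authors' factors it was 1 between P2 and CD324+ cells, with only the 6 libraries compared 2, and with at least 10 counts in every library 1 at E18.5, where that filter drops the embryonic genes. Leaving out each library gave 0 to 1 (P2 against CD324+), 0 to 1 (P2 against CD31+), 0 to 2 (CD31+ against CD324+), and 3 to 5 (E18.5). In the fits, the replicate block gave 0, 0, 0, and 5 and changed no member's call. For CD31+ against CD324+, adult beta under the block was -0.16. With no filter it was -0.061. *Hba-x* between P2 and CD324+ cells was -0.047 with the authors' factors. Estimates that changed sign when a library was left out ranged, between P2 and CD324+ cells, from -0.25 to 0.44 (*Hba-x*) and from -0.086 to 1.12 (*Hbb-y*). Between P2 and CD31+ cells they ranged from -0.84 to 0.19 (adult alpha), -0.72 to 0.20 (*Hba-x*), -1.34 to 0.029 (adult beta), and -0.90 to 0.41 (*Hbb-y*), and between CD31+ and CD324+ cells from -0.93 to 0.10 (adult alpha) and -0.94 to 0.43 (adult beta). The adjusted permutation p of the total level was 0.0598 with the library total, 0.0598 with the authors' factors, 0.0579 with DESeq2's size factors, and 0.0279 to 0.169 with a library left out. That of the embryonic share was 0.0136 as log odds and 0.0117 to 0.185 with a library left out. With labels exchanged within replicate numbers (replicate block, added after seeing the data), adjusted p was 0.0598 for the total level and 0.125 for the embryonic share. These adjusted values keep the main p of the other tests, and 0.0598 is the main value of the embryonic share. The ratio of alpha-like to beta-like counts kept its side throughout. The cause of these changes was not tested.

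The authors' factors moved the median log2 fold change of all features from -0.01 to -0.27 (P2 against CD324+), from -0.13 to -0.50 (P2 against CD31+), and from 0.03 to 0.27 (E18.5), so fold changes under them are shifted by as much. Outside CD31+ against CD324+ cells, r of the deviations of same-numbered libraries ran from -0.020 to 0.338. One planned ratio and its alternatives were not run. Depth limits the embryonic genes most, with 0 to 8 counts per library at E18.5 and 9 to 44 counts of *Hbb-bh1* at E14.5.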
